A study of Arabidopsis thaliana with 2 samples.

Results

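This account describes 434 regions of the Arabidopsis thaliana genome that were bound by the complex SEP3Δtet-AGΔtet, were not in the peak list of the complex SEP3Δtet3M-AG, and lay beside a gene. The regions were selected on list membership and position. A SEP3Δtet-AGΔtet peak was taken when it had not 1 bp in common with a SEP3Δtet3M-AG peak, and when its midpoint was outside every protein-coding gene but within 1000 bp of the start or end of at least 1 such gene. The 2 lists hold 3958 peaks in all, of which 2277 belonged to SEP3Δtet-AGΔtet and 1681 to SEP3Δtet3M-AG. Of the 2277, 1146 were found with SEP3Δtet-AGΔtet only, and the 434 flank peaks are a subset of these, beside 480 peaks inside genes and 232 farther away.

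Both complexes are made of SEPALLATA3 (SEP3) and AGAMOUS (AG), transcription factors with a MADS domain, and the study's design text describes both as altered in the formation of the SEP3-AG tetramer. Binding was measured by seq-DAP-seq, a method that lets protein complexes produced in vitro capture pieces of plant DNA, which are then sequenced. The DNA was taken from seedlings aged 2 weeks that had received no treatment, and each complex has 1 library. Both samples carry the genotype label SEP3Δtet3M-AG, and the complexes are therefore named from the sample titles. The labels do not say what 3M stands for. The DNA source is the same for both complexes and no cell types were measured.

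MADS-domain proteins bind DNA as dimers at an A- and T-rich element known as the CArG box. A pair of dimers can join into a tetramer, which can hold a pair of such elements at once and loop the DNA between them. SEP3 and AG act together in the flower, where they specify stamens and carpels and bring the floral meristem to its end. The flank of a gene holds its promoter and often other control regions. The gene table used here gives gene starts and ends without a strand, so peaks before a gene and peaks after it are not separated.

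With 1 peak list per complex there was no replicate, and the deposited lists carry no score or depth. A peak was therefore counted as present or absent, and no test was made. Because the peaks were chosen by their absence from the other list, that absence is a description and not a result. Intervals given as 95% are exact Clopper-Pearson intervals, which cover counting error only.

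Gene flanks held 434 of the 1146 SEP3Δtet-AGΔtet-only peaks (37.9%, 95% interval 35.1 to 40.8). They held 364 of the 1131 SEP3Δtet-AGΔtet peaks found in both lists (32.2%, 29.5 to 35.0) and 141 of the 544 SEP3Δtet3M-AG-only peaks (25.9%, 22.3 to 29.8). These intervals cover counting error only, and with 1 list per complex and unknown depth no difference between the complexes is read from them. As a check of the coordinates against the gene table, all 1146 peaks were moved by the same distance. At the deposited position 434 lay in flanks, against 250 and 249 after moves of 2000 bp down and up the coordinates, and between 230 and 246 after moves of 5000 or 20000 bp. The peaks were thus in gene flanks more often where they were deposited than at any of the 6 other positions tried.

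The flank peaks lay close to their genes. The midpoint was a median of 304 bp from the nearest protein-coding gene (95% interval of the median 277 to 339), with quartiles of 139 and 516 bp. Flank peaks found in both lists had a median of 253 bp (224 to 300), and SEP3Δtet3M-AG-only flank peaks a median of 232 bp (159 to 278). Over all 24306164 flank bases of the gene table the median was 351 bp. The peaks were nearer to genes than flank bases are as a whole, and their median lay above those of the other flank peaks, with an interval that overlaps each of theirs.

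Within 200 bp of a gene lay 156 of the 434 peaks (35.9%, 31.4 to 40.7), against 149 of 364 flank peaks in both lists (40.9%, 35.8 to 46.2), 65 of 141 SEP3Δtet3M-AG-only flank peaks (46.1%, 37.7 to 54.7) and 31.8% of flank bases. Since every peak is 400 bp wide, a peak whose midpoint is less than 200 bp from a gene also covers part of that gene. Within 500 bp lay 317 peaks (73.0%, 68.6 to 77.2), against 268 flank peaks in both lists (73.6%), 111 SEP3Δtet3M-AG-only flank peaks (78.7%) and 64.9% of flank bases. In steps of 100 bp, the SEP3Δtet-AGΔtet-only peaks were fewest beyond 800 bp, with 11 from 801 to 900 bp and 13 from 901 to 1000 bp. The share in the first 100 bp was 17.3% (13.8 to 21.2), close to the 17.4% of flank bases there, whereas 31.9% (24.3 to 40.3) of SEP3Δtet3M-AG-only flank peaks lay in it.

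**Figure D1:**
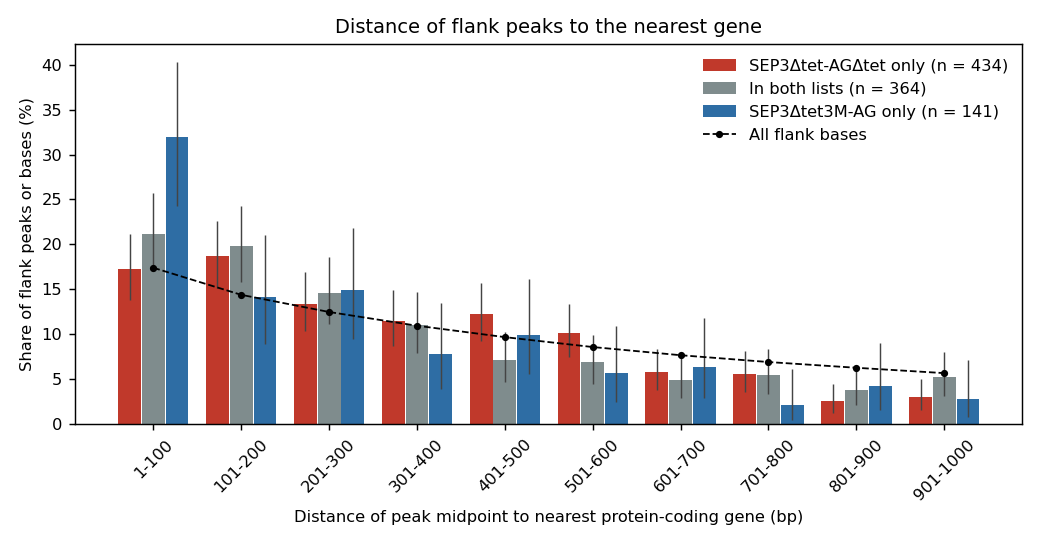
Share of flank peaks (y axis, percent) by distance from the peak midpoint to the nearest protein-coding gene (x axis, bp, in steps of 100 bp). Bars are SEP3Δtet-AGΔtet-only peaks, peaks in both lists and SEP3Δtet3M-AG-only peaks, lines on the bars are exact 95% intervals, and the dashed line is the share of all flank bases. From 1 to 100 bp, 17.3% of SEP3Δtet-AGΔtet-only peaks stand beside 31.9% of SEP3Δtet3M-AG-only peaks.

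The gene-free stretches that held the peaks had lengths near those around flank bases as a whole. They were a median of 2014 bp long (quartiles 1142 and 3573 bp), against 1955 bp for flank peaks in both lists, 2223 bp for SEP3Δtet3M-AG-only flank peaks and 2157 bp for flank bases. Stretches under 1000 bp held 87 of the 434 peaks (20.1%), near the 19.3% of flank bases. They held 95 (26.1%) of the peaks in both lists and 42 (29.8%) of the SEP3Δtet3M-AG-only peaks. Stretches over 5000 bp held 61 of the 434 peaks (14.1%), against 17.5% of flank bases. They held 46 of the peaks in both lists (12.6%) and 27 of the SEP3Δtet3M-AG-only peaks (19.1%). A gene within 1000 bp on both sides was found for 139 peaks (32.0%, 27.7 to 36.6), against 125 peaks in both lists (34.3%, 29.5 to 39.5), 52 SEP3Δtet3M-AG-only peaks (36.9%) and 29.8% of flank bases.

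Most peaks had a single gene to which they could be assigned. Within 1000 bp, 291 peaks had 1 protein-coding gene, 136 had 2, 6 had 3 and 1 had 4. Together the peaks flanked 577 of 27444 protein-coding genes, which is 2.1% of them. Since the peaks were chosen for lying beside genes, this share is the background for the gene groups below. Of the 577 genes, 257 have a symbol in the gene table (44.5%, against 37.8% of all protein-coding genes), and 2.48% of the 10374 genes with a symbol had such a peak. Families defined by symbol hold mostly these better-known genes, with exceptions such as AT4G00880, counted with the SAUR proteins. The flanked genes were a median of 2086 bp long, against 2078 bp over all genes.

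The peaks were spread over all 5 chromosomes, with 98, 75, 97, 60 and 104 on chromosomes 1 to 5. Per 1000 protein-coding genes this was 13.7 on chromosome 1, 17.4 on chromosome 2, 17.8 on chromosome 3, 14.4 on chromosome 4 and 16.4 on chromosome 5. Neighbouring peaks on a chromosome were a median of 177700 bp apart. Of 429 neighbouring pairs, 3 were under 1000 bp apart and 1 overlapped.

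Genes of the MADS-box family, to which SEP3 and AG themselves belong, stood beside 8 of the 434 peaks. By symbol the family has 98 members, so 8 are 8.16% (3.59 to 15.5), against 2.1% of all protein-coding genes. Flank peaks found in both lists stood beside 11 of the same 98 genes, where the background over all genes was 1.81%. A peak of both lists inside or within 1000 bp was found for 19 of the 98, where the background was 4.59%. MADS-box genes have 1553 bp of gene-free flank each, against 1179 bp for all genes. Per Mb of that free flank there were 52.6 gene and peak pairs in the family and 18.1 over all genes. The part of flank length in the counts of families was not tested.

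In a list of 39 MADS-box genes drawn up for their roles in flowering and development, 3 had such a peak (7.69%, 1.62 to 20.9). The interval holds the 2.1% over all protein-coding genes. A flank peak of both lists was found for 4, where the background over all genes was 1.81%. A peak of both lists inside or within 1000 bp was found for 13, where the background was 4.59%. The 3 genes with a SEP3Δtet-AGΔtet-only flank peak were TT16, AGL14 and AGL15. AGL15, which acts in embryos and delays flowering and organ shedding, had the nearest, at 12 bp (chr5:4450771-4451170). The same peak lay 763 bp from PPH, a chlorophyll breakdown enzyme, on its other side. AGL14, a regulator of root growth and of the move to flowering, had a peak at 65 bp (chr4:7142658-7143057). AGL14 also held a peak of both lists inside the gene, 945 bp from the flank peak.

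TT16, which directs the innermost layer of the seed coat, had its peak at 593 bp (chr5:7835173-7835572), and the nearest SEP3Δtet3M-AG peak was 84215 bp away. A further SEP3Δtet-AGΔtet peak lay in the same gene-free stretch. The other 5 MADS-box genes were AGL83 at 92 bp, AGL102 at 123 bp, AGL103 at 139 bp, AGL99 at 190 bp and AGL82 at 695 bp. These belong to the type I branch of the family, some of whose members act in the embryo sac and endosperm. For AGL82 another gene was nearer to the peak.

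In a list of 53 flower and meristem genes, 4 had such a peak (7.55%, 2.095 to 18.2). The interval narrowly holds the 2.1% over all protein-coding genes. A flank peak of both lists was found for 4, where the background over all genes was 1.81%. A peak of both lists inside or within 1000 bp was found for 7, where the background was 4.59%. IND, a helix-loop-helix protein that makes the fruit open, had a peak at 29 bp (chr4:43027-43426). SPT, a helix-loop-helix protein needed for carpel margins and the transmitting tract, had a peak at 467 bp (chr4:17413417-17413816). Both stood 4258 bp or more from any SEP3Δtet3M-AG peak.

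BOP2, a co-activator that shapes leaf bases and abscission zones, had a peak at 97 bp (chr2:17240507-17240906). BOP2 also held a peak of both lists inside the gene, 1118 bp from the flank peak. VDD, a DNA-binding protein needed in the cells of the embryo sac, had a peak at 667 bp (chr5:5962110-5962509). The auxin-induced SAUR19 was nearer to that peak, at 464 bp. AGL14 and BOP2 thus had a SEP3Δtet3M-AG peak in the gene body, while TT16, AGL15, SPT, IND and VDD had none inside the gene.

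No gene of the lists of 24 flowering time genes, 27 hormone genes and 21 housekeeping and photosynthesis genes had such a peak. At these list sizes a count of 0 allows shares of up to 14.2%, 12.8% and 16.1% (exact 95% limits), so the 2.1% over all genes was within reach for each. Flank peaks of both lists stood beside 0, 1 and 1 of these genes.

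**Figure D2:**
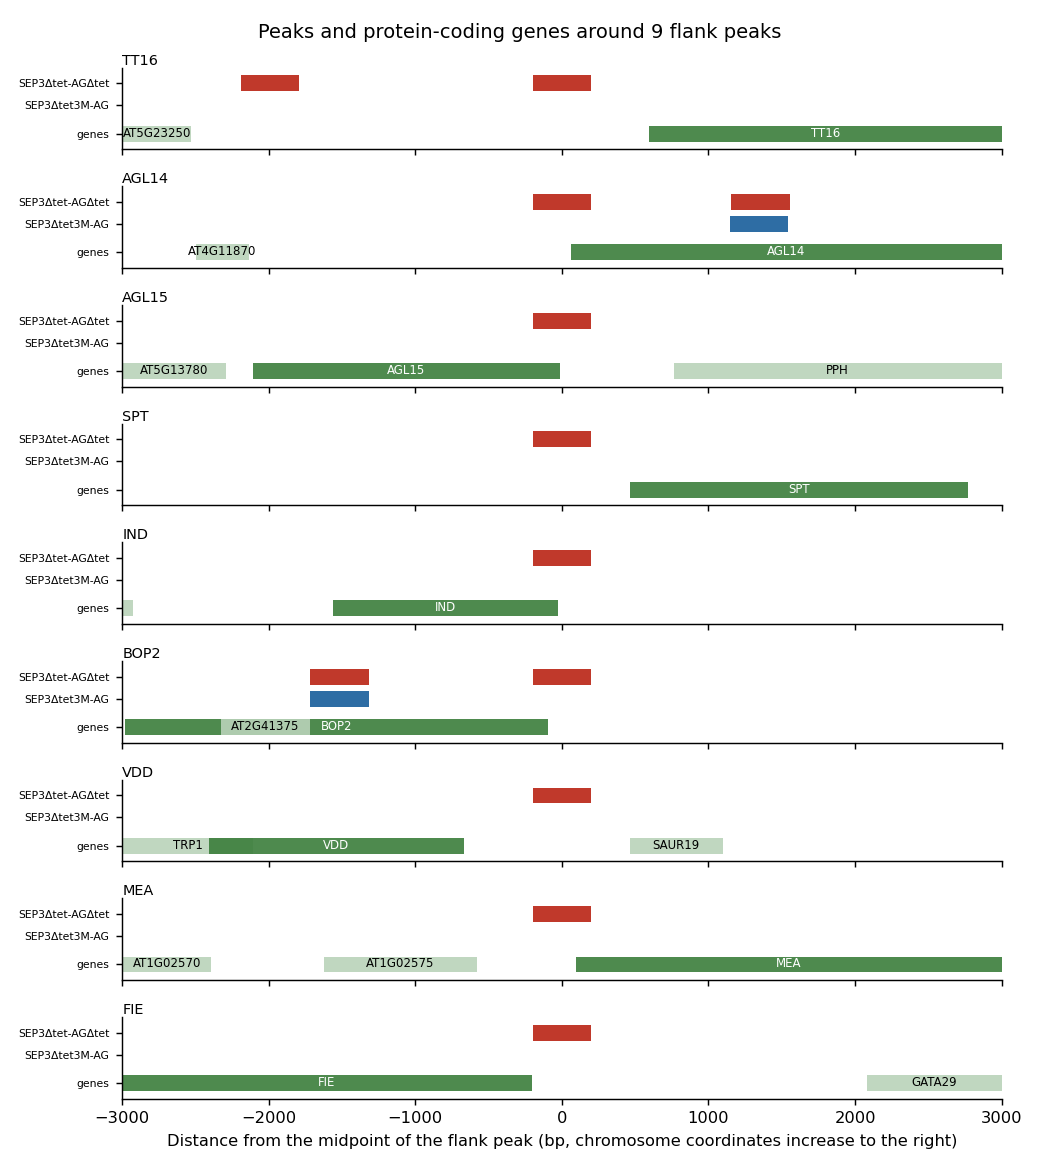
Peaks of both complexes and protein-coding genes within 3000 bp of 9 SEP3Δtet-AGΔtet-only flank peaks, with distance from the midpoint of the flank peak on the x axis (bp). Red bars are SEP3Δtet-AGΔtet peaks, blue bars SEP3Δtet3M-AG peaks and green bars genes, dark for the gene that names the panel. Only AGL14 and BOP2 of the 9 genes show a blue bar, and in each it lies inside the gene.

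Taking transcription factor families defined by symbol together, 32 of 760 genes had such a peak (4.21%, 2.9 to 5.89). The 760 leave out C2H2 zinc finger proteins, with 1 of 31 genes. They also leave out auxin response factors and Aux/IAA proteins, with 2 of 54, and transcription factors known by other names. Flank peaks of both lists stood beside 31 of the 760, so the count was nearly the same for both sets of peaks. These genes have 1562 bp of free flank each, and the rate per Mb of it was 27.0, against 18.1 over all genes. Of the 30 families, 8 had 3 or more genes with such a peak, 27 had an interval that holds the 2.1% over all genes, and 28 an interval that holds the 2.48% over genes with a symbol. Of genes that carry a numbered bHLH, DOF, TCP or SPL symbol (22, 18, 22 and 18 genes), none had such a peak. This leaves out family members known by other names, such as the helix-loop-helix genes IND, SPT and RHD6 described here, which did have one.

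The LBD family, plant-specific regulators of organ boundaries and lateral organs, had 4 of 40 genes (10%, 2.79 to 23.7). No LBD gene had a peak of both lists inside or within 1000 bp, where the background over all genes was 4.59%. With 40 genes, nothing is read from this absence. The SEP3Δtet-AGΔtet-only peaks were 246 bp from LBD5, 288 bp from LBD35, 508 bp from LBD14 and 966 bp from JLO. JLO controls boundary and auxin transport genes. All 4 were the nearest gene of their peak, and the nearest SEP3Δtet3M-AG peak was between 5812 and 86901 bp away. The rate per Mb of free flank was 62.3 for the family.

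The MYB family had 6 of 125 genes (4.8%, 1.78 to 10.2), and 6 with a flank peak of both lists. MYB37, a regulator of axillary buds, was 88 bp from its peak, MYB121 was at 205 bp, MYB2, known from drought responses, at 473 bp and MYB119, which acts in the embryo sac, at 493 bp. The MYB121 peak was only 22 bp from a SEP3Δtet3M-AG peak and the MYB119 peak 419 bp. MYB108 at 673 bp and MYB92 at 978 bp made up the 6. The family was defined by symbol, so MYB proteins known by other names, such as CPC described below, are not counted.

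Of the ERF and DREB genes defined by symbol, which carry the AP2 domain, 4 of 63 had such a peak (6.35%, 1.76 to 15.5) and 3 had a flank peak of both lists. The 4 were ERF8 at 105 bp, the cytokinin response factors CRF8 at 310 bp and CRF4 at 485 bp, and DREB26 at 413 bp. Family members known by other names are not counted. Of the WRKY genes, best known from defence, 3 of 71 had such a peak (4.23%, 0.88 to 11.9) and none had a flank peak of both lists, although 2 had a peak of both lists inside or within 1000 bp. WRKY2, which also sets the polarity of the zygote, was at 371 bp, WRKY42 at 613 bp and WRKY20 at 696 bp. For WRKY20 another gene was nearer to its peak.

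Cytochrome P450 enzymes, which build and modify sterols, hormones and defence compounds, had 11 of 239 genes (4.6%, 2.32 to 8.09) at 10 separate peaks. A single P450 gene had a flank peak of both lists, and 11 had a peak of both lists inside or within 1000 bp, where the background over all genes was 4.59%. The family has 1359 bp of free flank per gene, and the rate per Mb was 33.9. The sterol desaturase genes CYP710A4, at 51 bp, and CYP710A3, at 73 bp, stand next to each other on chromosome 2, and each had a peak of its own (chr2:12387918-12388317 and chr2:12384925-12385324). CYP90D1, an enzyme of brassinosteroid synthesis, was 102 bp from its peak, and CYP81F3, an enzyme of indole glucosinolates, 178 bp.

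UDP-glycosyltransferases, which attach sugars to hormones and small molecules, had 3 of 64 genes (4.69%, 0.977 to 13.1) at 2 separate peaks, and 2 had a flank peak of both lists. UGT73C1 was at 306 bp, UGT71D1 at 679 bp and UGT71C2 at 742 bp, and for each of them another gene was nearer to the peak. For UGT73C1 that gene was SWC2, at 158 bp, which is described below. Small secreted peptides had 8 of 182 genes (4.4%, 1.92 to 8.48), and 4 had a flank peak of both lists. Nearest were the CLE signalling peptide gene CLE43 at 31 bp, the defensin PDF1.4 at 303 bp, the growth-regulating peptide gene RALFL14 at 332 bp and CLE17 at 396 bp. CLE42, CLE12, LCR39 and LCR85 lay between 440 and 983 bp, and for LCR39 and LCR85 another gene was nearer to the peak. The CLE peptides were 4 of the 8. How many of the 182 are CLE genes was not counted, so nothing is read from this.

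Every one of these families had a share above 2.1%, which the rule for naming families, at least 3 genes, favours in small families. The families were chosen with their counts known. Of the 30 families, the MADS-box, LBD and P450 families had an interval above the 2.1% over all genes. The P450 interval holds the 2.48% over genes with a symbol, and the MADS-box and LBD intervals lay above that too. These intervals were looked at for 30 families, cover counting error only and take no account of flank length. No enrichment is therefore read from them.

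**Figure D3:**
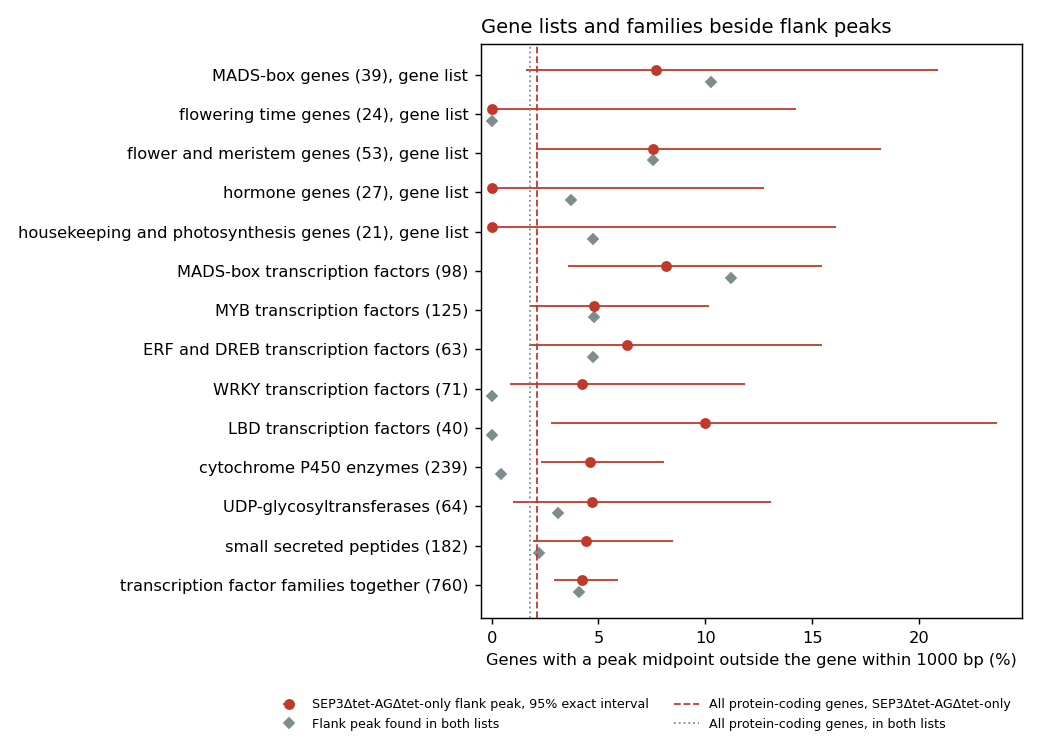
Share of genes with a SEP3Δtet-AGΔtet-only flank peak (red points, with exact 95% intervals) and with a flank peak of both lists (grey diamonds), on the x axis in percent. Rows are the 5 gene lists and the 8 families with 3 or more such genes, with the number of genes in brackets. The last row takes the families of the 760 transcription factor genes together. The dashed line marks 2.1% and the dotted line 1.81% of all protein-coding genes. Red points stand at 10% for LBD genes, 8.16% for MADS-box genes and 4.6% for P450 genes, all with wide intervals.

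The remaining named genes were grouped after their names had been seen, and the groups describe them without any count of enrichment. For JMJ14, FDM2, NIK1, AGD5, ALMT9, PIP2E, PAD4 and PGSIP1, described below, another gene was nearer to the peak. For PGSIP1 that gene was AGL103. Among chromatin and DNA methylation genes, 2 subunits of the seed-acting Polycomb complex had such a peak. MEA, its histone methyltransferase, was 96 bp from a peak (chr1:544438-544837), and FIE, its WD40 subunit, was 207 bp from a peak (chr3:7252460-7252859). The nearest SEP3Δtet3M-AG peaks were 8864 and 9780 bp away. CMT3, which methylates cytosines outside CG sites, was at 593 bp, the histone demethylase gene JMJ14 at 384 bp and FDM2, of RNA-directed DNA methylation, at 634 bp. The centromere protein gene CENP-C was at 439 bp, the SWR1 chromatin-remodelling subunit gene SWC2 at 158 bp and TRFL1, for a telomere repeat-binding protein, at 82 bp.

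Receptor kinase genes with such a peak included ER, which controls organ shape and stomatal patterning, at 118 bp. FER, a receptor of RALF peptides that acts in fertilisation and cell growth, was at 301 bp. NIK1 was at 337 bp, PSKR1, the receptor of the peptide phytosulfokine, at 644 bp, and BRL1, a brassinosteroid receptor, at 914 bp.

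Genes of tip growth and the epidermis included RHD6, a regulator of root hair initiation, at 268 bp and CPC, a small MYB protein that moves between root epidermal cells, at 548 bp. SHV2, a COBRA-like protein of root hairs, was at 722 bp and TRN2, a tetraspanin, at 103 bp. CSLD4, a cellulose synthase-like protein of pollen tubes, had peaks at 63 and 432 bp on the same side (chr4:17913654-17914053 and chr4:17914023-17914422). These are the only overlapping peaks of the 434, with starts 369 bp apart.

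Regulators of meristems, embryos and organ shedding included TSL, a nuclear kinase needed for flower development, at 62 bp. DPA4, which represses leaf margin outgrowth, had a peak on each side, at 72 bp (chr5:1891609-1892008) and 475 bp (chr5:1894629-1895028). HAM1, which keeps shoot meristems undifferentiated, was at 311 bp, HWS, an F-box protein of organ separation, at 425 bp, BBM, an AP2 protein that promotes embryo development, at 584 bp, and AGD5, needed for floral organ shedding, at 897 bp.

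Of sugar genes, the sucrose synthase gene SUS1 lay 38 bp from a peak. The sugar exporters SWEET8 and SWEET13 were at 167 and 481 bp, the sucrose transporter genes SUT4 and SUC7 at 325 and 414 bp, the vacuolar sugar transporter gene TMT2 at 790 bp and TPS11, of the trehalose phosphate synthase family, at 316 bp. Of transport genes, the plasma membrane proton pump gene HA1 was at 53 bp and the calcium pump gene ACA9, which acts in pollen, at 94 bp. The sodium and proton exchanger genes NHX3 and SOS1 were at 154 and 436 bp, and the phosphate transporter genes PHT1;1 and PHT1;4 at 306 and 762 bp. ALMT9, a vacuolar anion channel, was at 176 bp, the aquaporin gene PIP2E at 524 bp and NIP1;2 of the same family at 871 bp.

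Hormone genes outside the list of 27 did have such peaks. The abscisic acid receptor gene PYL10 was at 20 bp and ETO1, which limits ethylene synthesis, at 126 bp. ILR1, which frees auxin from its conjugates, was at 133 bp, and the auxin response repressors PAP2 and IAA31 were at 135 and 250 bp. The cytokinin synthesis gene IPT7 was at 369 bp and the cytokinin response regulator gene RR18 at 368 bp. ORA47, a regulator of jasmonate synthesis, was at 469 bp and EIL2, of the ethylene-insensitive family, at 845 bp.

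Of light-response genes, RUP2, a repressor of the UV-B pathway, was at 93 bp, NPH3, of phototropism, at 297 bp and SOB5 at 744 bp. Of defence and cell wall genes, CESA10, a cellulose synthase, was at 178 bp, BZO1, of benzoyl-glucosinolate synthesis, at 182 bp, and PGSIP1, a glucuronosyltransferase of xylan, at 370 bp. IGMT2, of indole glucosinolates, was at 401 bp, PAD4, of defence signalling, at 487 bp and the beta-glucosidase gene PYK10 at 750 bp.

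**Figure D4:**
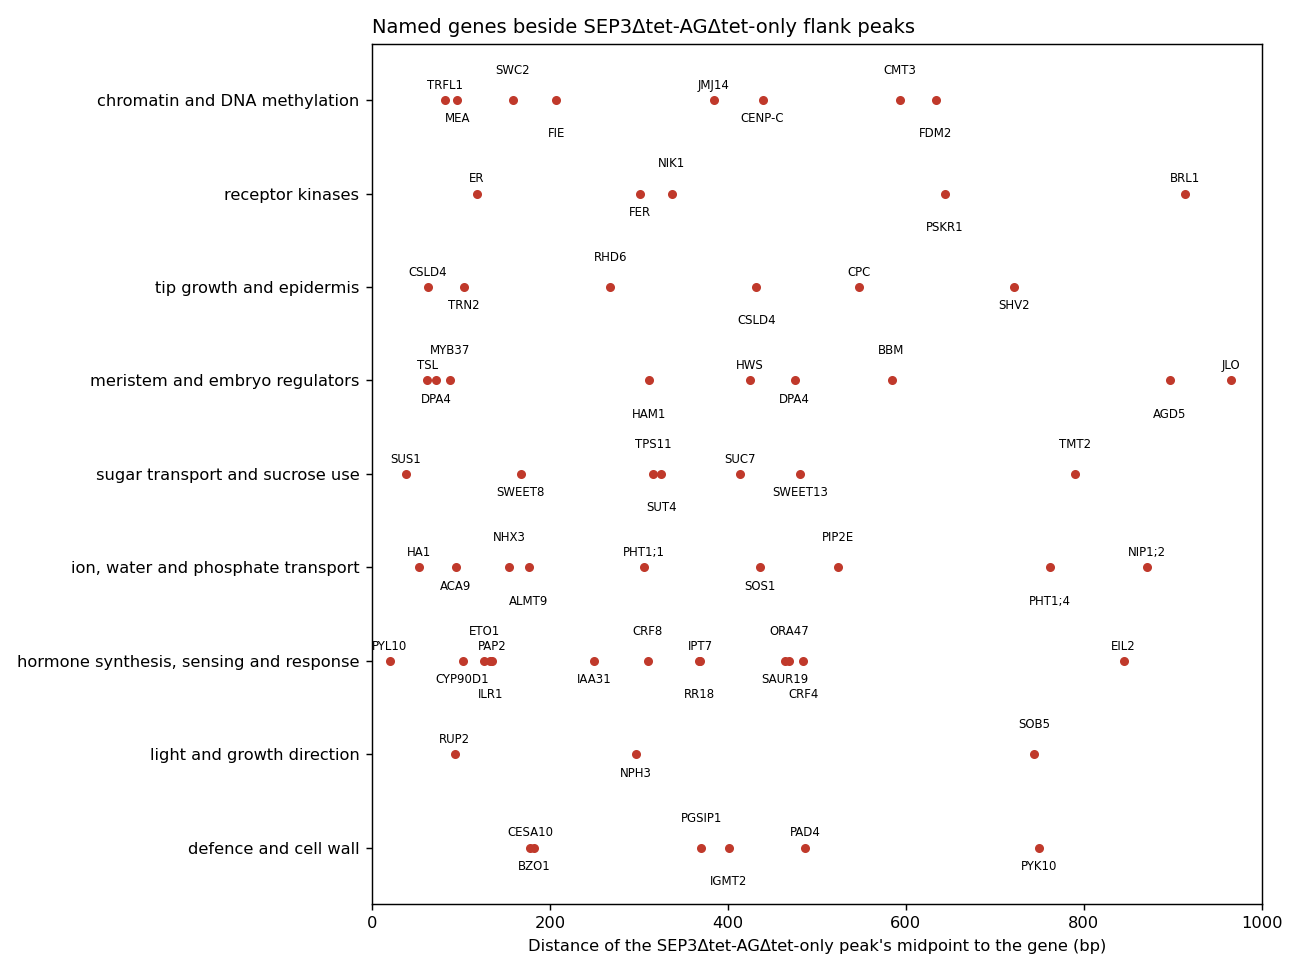
Distance from the midpoint of the SEP3Δtet-AGΔtet-only flank peak to each named gene (x axis, bp), with gene groups drawn up after the names were seen in rows. Each point is 1 gene and peak pair, and CSLD4 and DPA4 appear with 2 peaks each. The nearest gene shown is PYL10, at 20 bp.

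Of the 577 genes, 8 had 2 of the peaks within 1000 bp and none had more. CSLD4 and DPA4 are described above. FBA8, a fructose-bisphosphate aldolase gene of glycolysis, had peaks on each side at 224 and 745 bp, and both lay nearer to other genes. The remaining 5 have no symbol in the table: AT1G16950 (547 and 759 bp), AT1G66235 (460 and 928 bp), AT2G15590 (138 and 800 bp), AT2G39020 (515 and 671 bp) and AT5G19175 (131 and 864 bp).

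Of the 143 peaks with 2 or more genes within 1000 bp, 28 had a symbol for at least 2 of them, and 5 held a pair of genes with the same symbol stem. The branched-chain aminotransferase genes BCAT-2 and BCAT-1 lay 350 and 445 bp on either side of a peak (chr1:3287538-3287937). The P450 genes CYP71B29 and CYP71B7 lay at 554 and 815 bp (chr1:4466080-4466479). UGT71D1 and UGT71C2 lay at 679 and 742 bp (chr2:12705686-12706085), with AT2G29735 nearer, at 186 bp. The beta-glucosidase genes BGLU44 and BGLU43 lay at 516 and 765 bp (chr3:6190746-6191145) and the receptor-like kinase genes CRK23 and CRK22 lay at 123 and 472 bp (chr4:12185047-12185446). In the P450, UGT71 and CRK pairs both genes count towards their family from 1 peak, so they are not separate cases. The BCAT and BGLU genes belong to none of the families counted here.

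Some of the genes flanked by these peaks also carried a SEP3Δtet3M-AG peak. Of the 577 genes, 35 had a SEP3Δtet3M-AG peak inside or within 1000 bp (6.07%, 4.26 to 8.34), against 6.61% of all protein-coding genes. The rule excluded overlap with such a peak but not a separate peak elsewhere at the gene. The rule thus bore on this share, and nothing about the flanked genes is read from it. Besides AGL14 and BOP2, the 35 included CMT3, TSL, ACA9, MYB121, CYP81F3, PIP2E, the NAC factor gene NAC083, the catalase gene CAT3, NF-YA2, which encodes a CCAAT-binding subunit, the potassium transporter gene KUP10 and EXGT-A3, a xyloglucan-modifying enzyme gene.

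A SEP3Δtet-AGΔtet-only peak inside the gene was found for 14 of the 577 genes (2.43%, 1.33 to 4.04), against 1.73% of all genes. A flank peak of both lists was found for 7 of them, which is 1.21% of the 577 genes, against 1.81% of all genes, and 1.41% of the 497 genes with such a peak. A SEP3Δtet3M-AG-only flank peak was found for 2, which is 0.347% of the 577, against 0.703% of all genes, and 1.04% of the 193 genes with such a peak. Nothing about the flanked genes is read from these few overlaps.

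Gaps to SEP3Δtet3M-AG peaks are given as a description, since the rule removed every overlap. No gap is given for genome positions outside the peak lists. The gap to the nearest SEP3Δtet3M-AG peak was a median of 17650 bp (quartiles 7063 and 38270 bp) and at most 284441 bp. It was 1000 bp or less for 21 peaks (4.84%, 3.02 to 7.3) and 100 bp or less for 4. SEP3Δtet-AGΔtet-only peaks inside genes had a median gap of 21610 bp, with 22 of 480 within 1000 bp (4.58%), and those farther from genes had 22730 bp, with 18 of 232 (7.76%). Seen from the other list, SEP3Δtet3M-AG-only flank peaks had a median gap of 17800 bp to a SEP3Δtet-AGΔtet peak, with 9 of 141 within 1000 bp (6.38%).

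**Figure D5:**
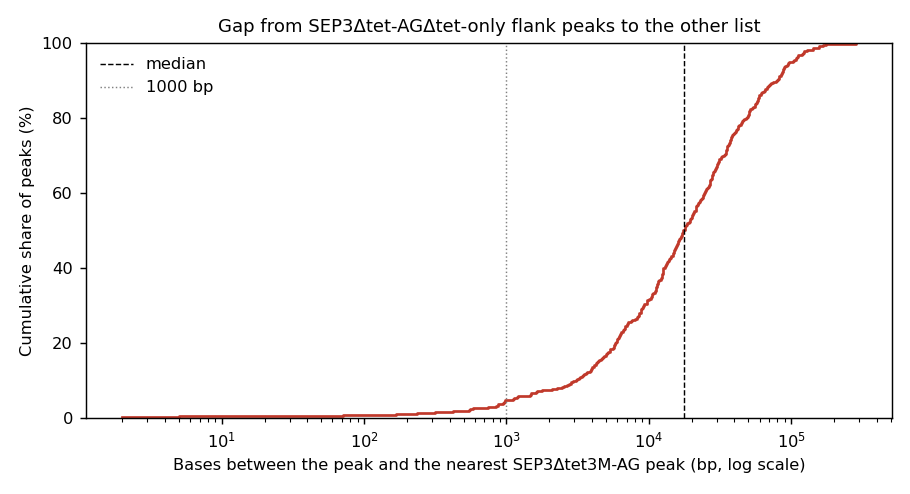
Cumulative share of the 434 SEP3Δtet-AGΔtet-only flank peaks (y axis, percent) by the number of bases to the nearest SEP3Δtet3M-AG peak (x axis, bp, log scale). The dotted line marks 1000 bp, below which 4.84% of the peaks lie, and the dashed line marks the median of 17650 bp.

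At the edges of the selection, the peaks nearest to a gene were 1 bp from AT5G49960 (chr5:20327683-20328082), 3 bp from AT1G24220 and 4 bp from AAE7. The farthest were 978 bp from MYB92 (chr5:3231392-3231791), 984 bp from AT5G64110 and 985 bp from AT2G10020. Just beyond the limit, and left out, were peaks 1003 bp from AT2G36090, 1003 bp from AT5G59350 and 1004 bp from TON1A. The peaks with the smallest gaps to a SEP3Δtet3M-AG peak were those at AT3G18450 (chr3:6332360-6332759), with 2 bp, AT1G69250 (chr1:26035616-26036015), with 5 bp, and MYB121 (chr3:11837959-11838358), with 22 bp. The flank peaks of both lists with the smallest overlaps shared 2 bp at AT4G19450, 59 bp at NF-YB13 and 66 bp at ABF4. Between these values the difference between a peak of 1 list and a peak of both is a matter of a few bases.

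A small number of the peaks fell in genes that do not code for protein. The midpoint of 9 of the 434 (2.07%, 0.952 to 3.9) lay in such a gene, 6 of them long non-coding RNA genes, against 13 of 364 flank peaks in both lists (3.57%, 1.92 to 6.03). A single microRNA gene, MIR823, lay within 1000 bp of a peak, at 826 bp, and the same peak was 102 bp from CYP90D1 (chr3:4497592-4497991).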

How the data were processed

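Of 2 sequential DNA affinity purification libraries, 1 per complex, the authors deposited peak coordinates: chromosome, start and end in 3 columns without a header, every peak 400 bp wide. Bowtie2, SAMtools and MACS2 are named per the submitters' processing notes; versions, settings, build and pooling: not given in the sources used here. With the depth unknown, a weaker peak and a missing one cannot be told apart.

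Starts were counted from 1. Peaks of both lists sharing at least 1 bp were called shared. Midpoints were set against 27444 protein-coding genes of chromosomes 1 to 5 in NCBI RefSeq's TAIR10.1 gene table, which holds no strand or sequence, so upstream and downstream are not separated and no sequence is shown. Because the peaks' build is not named, gene coordinates are not printed. Free flank is the part of the 1000 bp on either side of a gene that holds no protein-coding gene. Of 168 names in 5 gene lists, 164 genes were matched; EF1A and TIP41 were not, and the remaining difference is duplicate names. Families were defined by symbol; the pectin enzyme pattern was narrowed after it had caught unrelated symbols.

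Named are all list genes with a peak, the up to 4 nearest genes of families with 3 or more, genes with 2 peaks, the extremes of distance and gap, and groups drawn up after the gene names were seen, as were other family members and the examples with peaks of the other complex. The peaks, lists and families were chosen with earlier results of these data known. No test was made, as each complex has 1 list; shares have exact 95% intervals. The gene assignment was tested on simulated data. Python 3.11.15, pandas 2.3.3, numpy 2.4.6, SciPy 1.17.1 and matplotlib 3.10.9 were used.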

Additional observations from a re-analysis of the deposited data

How the results depend on the processing

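Overlap of 200 bp, midpoints within 100 bp, flanks of 500 or 2000 bp, genes of every type, merged peaks, the nearest gene only and, chosen after seeing the data, peaks at least 1000 bp from every SEP3Δtet3M-AG peak gave 44 values, of which 34 stayed within the limits set and 10 moved. The number of peaks ranged from 317 with flanks of 500 bp to 559 with flanks of 2000 bp, against 434. Even these counted as within the limit for that number, so the 34 are not all small changes. Flanks of 500 bp gave a median distance of 203 bp, a gene on both sides for 16.7% of the peaks, 27.7% of the SEP3Δtet-AGΔtet-only peaks in flanks and 371 genes. Flanks of 2000 bp gave 425 bp, 50.5%, 48.8%, 915 genes and 12 genes of the 5 lists, against 304 bp, 32.0%, 37.9%, 577 and 7 in the report. These follow from the width itself. Genes of every type gave 42.0% in flanks, since 37899 genes then have flanks. The nearest gene only left 428 genes.

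No paired analysis was possible because each complex has 1 list, and leaving out a replicate was not possible for the same reason. A stricter peak threshold, the side of the gene and a CArG-box search were not run, since the files used here hold no score, strand or sequence. Unknown depth limits all comparisons between the lists.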
